A study of Mus musculus with 18 samples.

Results

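The miR-378 family is a small set of microRNAs found in these livers, taken here as every listed mature miRNA whose name without the species prefix is miR-378 or begins with miR-378 and a letter or arm. The rule found 5 members among 758 listed miRNAs: mmu-miR-378a-3p, mmu-miR-378a-5p, mmu-miR-378b, mmu-miR-378c and mmu-miR-378d, written without the prefix from here on. Small RNA was sequenced from livers of wild-type C57BL/6J mice in 18 libraries, 3 in each of 6 groups. The groups were HF+CR, HF+Ex and HF, then LF+CR, LF+Ex and LF, in which HF and LF stand for diets rich and poor in fat, CR for restricted calories and Ex for exercise, as read from the titles. All mice were labelled wild type, started their regimen when 5 weeks old and gave tissue at 62 weeks. The labels give neither the fat content, the degree of restriction nor the form of exercise. Whether each library is a different animal is not said either, so every p-value weighs a difference against spread between libraries that may be technical.

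MicroRNAs are short RNAs that guide Argonaute proteins to messenger RNAs, mainly through the seed, bases 2 to 8 from the 5′ end, and lower the output of the messages they pair with. The gene of miR-378a lies in an intron of Ppargc1b, which encodes the coactivator PGC-1β, a driver of mitochondrial and fatty acid oxidation genes, and is read in the same direction as its host. In mice, miR-378a arms are known to target the carnitine acetyltransferase Crat and the Mediator subunit Med13, and in liver miR-378 is known to target the insulin signalling kinase subunit p110α.

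The members with a RefSeq mature sequence (3 of 5, build GRCm38) are shown because they differ at the very bases that define a seed. Capitals mark the seed, written 5′ to 3′.

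miR-378b: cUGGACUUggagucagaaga
miR-378c: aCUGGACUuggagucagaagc
miR-378d: aCUGGCCUuggagucagaaggu

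miR-378b and miR-378c share an unbroken run of 19 bases, cuggacuuggagucagaag, which begins at base 1 of miR-378b and at base 2 of miR-378c. The seed window of miR-378b is therefore shifted by a base against that of miR-378c, although the shared stretch is the same. miR-378d carries A6C relative to miR-378c, counted from 1 at the 5′ end, a change inside the seed, and C21G at its 3′ end. Among the 1679 RefSeq mouse mature miRNAs searched, each of these 3 seeds belonged to 1 miRNA. That set held no miR-378a sequence, so a seed shared with miR-378a-3p could not be found.

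The hairpins of miR-378b and miR-378c are shown because the mature strand comes from opposite arms. Capitals mark the mature miRNA.

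Mir378b hairpin: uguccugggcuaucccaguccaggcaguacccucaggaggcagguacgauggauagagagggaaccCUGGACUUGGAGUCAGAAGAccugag
Mir378c hairpin: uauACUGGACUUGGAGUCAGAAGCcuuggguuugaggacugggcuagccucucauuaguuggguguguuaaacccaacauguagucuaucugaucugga

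Mir378b lies at chr11:88352773-88352864 on the plus strand of GRCm38, inside an intron of Msi2, an RNA-binding protein gene on the opposite strand, and its mature form spans bases 67 to 86 of the 92-base hairpin. Mir378c lies at chr14:46954830-46954928 on the minus strand, inside an intron of Samd4, also on the opposite strand, with the mature form at bases 4 to 24 of 99. Mir378d lies at chr10:126710282-126710391 on the minus strand and overlaps no protein-coding gene in GENCODE M21. How the deposited values divide reads that match several of these miRNAs is not given in the sources used here, so levels of miR-378b, miR-378c and miR-378a-3p may share reads.

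Values are RPM as deposited, reads scaled to a common library total. In every library all values were whole multiples of a single step (100%, tolerance 0.001), with the smallest listed value at 2 steps, so read numbers were inferred by taking a step as 1 read. The deposited values are not counts, and every read number and Poisson interval given here rests on that reading. The libraries held 2.38 to 10.5 M inferred reads on listed miRNAs (M for mega, the SI prefix). HF+CR was the shallowest group, at 3.95 ± 1.37 M reads, against 5.56 ± 1.31 M in HF and 7.78 ± 0.988 M in LF (SD, n = 3). A list of 6 hepatocyte miRNAs summed to 299636 to 412248 RPM over the libraries. HF+CR 1 and LF+CR 1 held 138 and 348 RPM of pancreatic miRNAs, against 41.2 RPM or less elsewhere. HF+CR 3 and LF 1 stood apart with 7989 and 5663 RPM of epithelial miRNAs, against 3770 RPM or less elsewhere. Muscle miRNAs were few, 8.33 to 153 RPM in sum.

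miR-378a-3p, the main strand of its hairpin, was the most abundant member. Its mean over the 18 libraries was 10693 RPM, the 18th highest of all listed miRNAs, and it made up 78.4% of the family's RPM on average. miR-378c followed with a mean of 2552 RPM and 18.6% of the family. The other strand, miR-378a-5p, had 378.4 RPM and 2.88%. miR-378b was a low-level member at 21.9 RPM, or 0.162% of the family, and rested on 33 to 300 reads a library. miR-378d was listed above 0 in 9 of 18 libraries, at 2 to 6 reads, and in no LF+CR library. It was not tested. The other 4 members passed the filter of at least 5 RPM in at least 3 libraries, as did 351 miRNAs in all. The family as a whole took between 0.885% of the listed RPM, in LF+CR 1, and 2.41%, in HF 2.

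**Figure D1:**
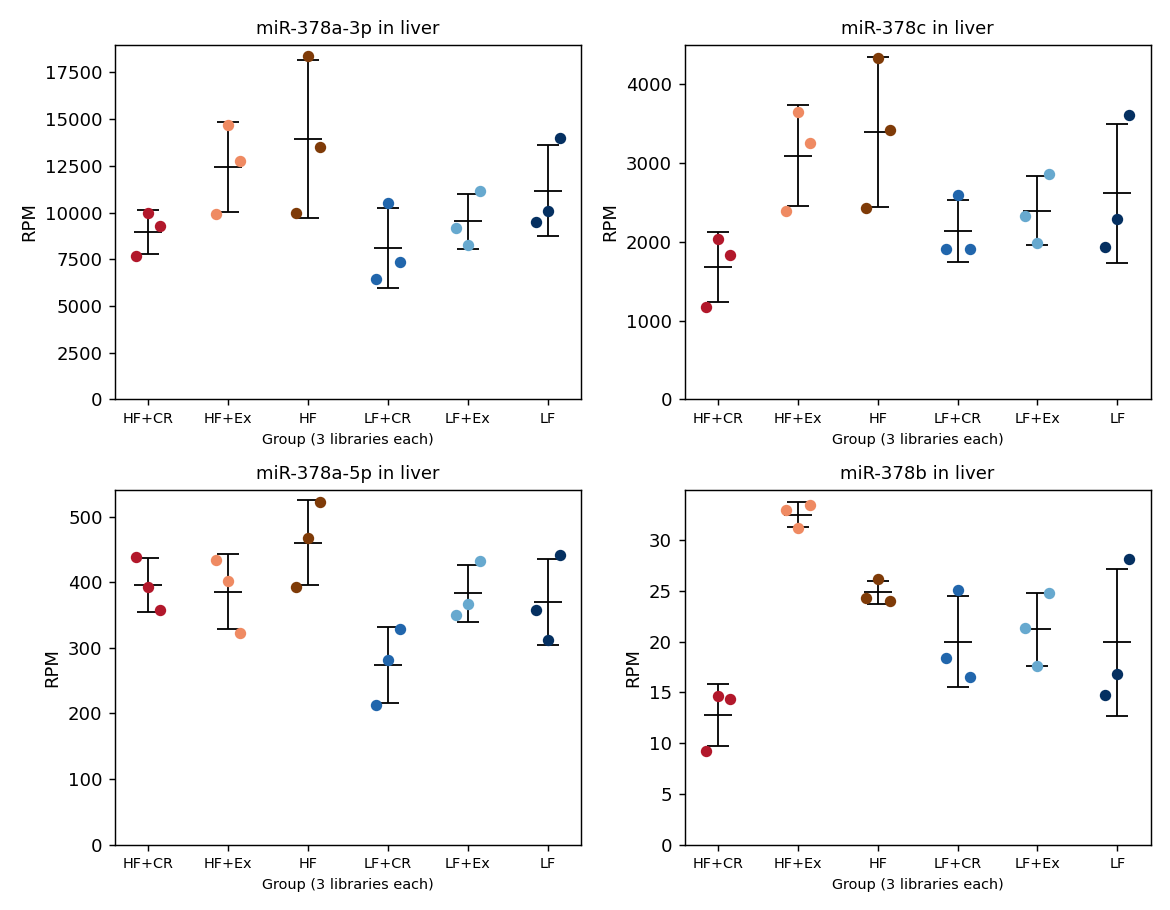
RPM of the 4 tested members in each library (points, 3 per group), with the group mean and SD (black), on axes that start at 0. miR-378b was lowest in the HF+CR libraries, at 9.25 to 14.6 RPM, and highest in the HF+Ex libraries, at 31.1 to 33.5 RPM.

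For calorie restriction on the high-fat diet, HF+CR against HF, miR-378a-3p, miR-378b and miR-378c had their widest differences among the 7 pairs of groups in the values as deposited, which was not so for miR-378a-5p. miR-378b was at 9.25, 14.6 and 14.4 RPM in HF+CR, against 24.3, 26.2 and 24.05 RPM in HF. All HF+CR libraries lay below all HF libraries, and HF+CR 1, the lowest, rested on 33 reads (9.25 RPM, exact Poisson 95% interval 6.37 to 12.99 RPM, counting error only). The log2 fold change of RPM + 1 was -0.94 (SE 0.24, 95% interval -1.45 to -0.42). limma with Benjamini-Hochberg adjustment over 351 miRNAs gave an adjusted p of 0.128, short of the 0.05 threshold, and miR-378b ranked 4th by p.

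miR-378c was at 1178, 2034 and 1830 RPM in HF+CR, against 2428, 4334 and 3415 RPM in HF. These groups did not overlap either. The log2 fold change was -1.01 (SE 0.28, 95% interval -1.61 to -0.42, limma adjusted p = 0.140), 6th by p. miR-378a-3p was at 7667, 9953 and 9278 RPM in HF+CR, against 9950, 18363 and 13504 RPM in HF, and the groups met at their edge. Its difference was -0.60 (SE 0.24, 95% interval -1.11 to -0.09, limma adjusted p = 0.247). miR-378a-5p overlapped, at 357 to 438 RPM in HF+CR and 393 to 522 RPM in HF, with a difference of -0.21 (95% interval -0.63 to 0.20).

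limma called 0 of 4 members in HF+CR against HF and 0 of the 351 tested miRNAs (0%), of which 53 had an unadjusted p below 0.05. Both miR-378b and miR-378c separated the groups downward, which 9.4% of tested miRNAs did. Without HF+CR 3, the library high in epithelial miRNAs, miR-378b passed (-1.03, limma adjusted p = 0.0431). That fit called 22 of all tested miRNAs. Without HF+CR 1, which carried pancreatic miRNAs and the lowest miR-378b and miR-378c, the differences were -0.74 and -0.77, with limma adjusted p of 0.367 and 0.457. Fragment-like miRNA entries, a sign of RNA quality, summed to 115, 141 and 310 RPM in HF+CR, against 28.1, 36.1 and 120 RPM in HF. Their part in the result was not tested. In bulk liver, fewer cells that express a miRNA and less of it per cell cannot be told apart.

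**Figure D2:**
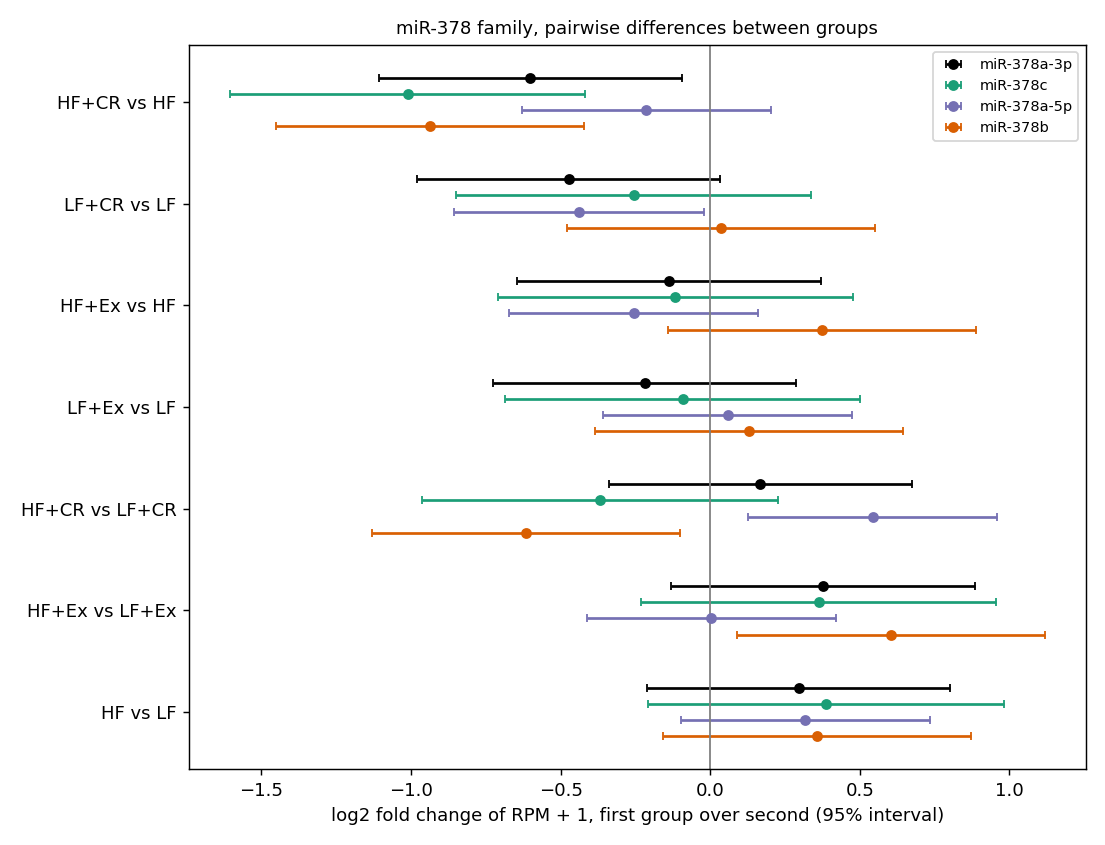
Log2 fold change of RPM + 1 (points) with its limma 95% interval (bars) for 4 members in 7 pairwise comparisons, named group over second group. In HF+CR against HF the intervals of miR-378b, miR-378c and miR-378a-3p lie below 0, and none of the points shown passed at an adjusted p of 0.05.

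For calorie restriction on the low-fat diet, LF+CR against LF, the members with the widest differences were not the same. miR-378b stood level, at 18.4, 25.1 and 16.5 RPM in LF+CR and 14.8, 16.8 and 28.2 RPM in LF, with a difference of 0.04 (SE 0.24, 95% interval -0.48 to 0.55, limma adjusted p = 0.947). miR-378c was at 1903, 2593 and 1913 RPM in LF+CR and 1941, 2295 and 3610 RPM in LF, a difference of -0.26 (95% interval -0.85 to 0.34). As deposited, the strands of the Ppargc1b intron hairpin differed most. miR-378a-3p was at 6451, 10495 and 7372 RPM in LF+CR, against 9480, 10068 and 13966 RPM in LF (-0.47, SE 0.24, limma adjusted p = 0.211). miR-378a-5p was at 213, 282 and 329 RPM in LF+CR, against 357, 312 and 442 RPM in LF (-0.44, SE 0.20, limma adjusted p = 0.153). Each of these 4 members overlapped between the groups. None of them was called, where 6.27% of tested miRNAs were, and the median over all tested miRNAs was itself -0.32. After rescaling by size factors, which puts that median at 0.01, miR-378a-3p was at -0.14, miR-378a-5p at -0.11 and miR-378c at 0.08, and the largest in size was miR-378b at 0.35 (limma adjusted p of 0.467 to 0.895).

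The test of whether restriction acted differently on the diets was the HF difference minus the LF difference. It was -0.97 for miR-378b (SE 0.34, 95% interval -1.70 to -0.24, limma adjusted p = 0.231) and -0.76 for miR-378c (SE 0.40, 95% interval -1.60 to 0.08, limma adjusted p = 0.384). For miR-378a-3p it was -0.13 and for miR-378a-5p 0.23, with intervals that spanned 0. No member passed, against 0.855% of tested miRNAs. The median over all tested miRNAs lay on the other side of 0, at 0.28.

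Averaged over both diets, restriction gave differences below 0 for all 4 tested members, as it did for 68.7% of tested miRNAs. miR-378c was at -0.63 (SE 0.20, 95% interval -1.05 to -0.21) and miR-378a-3p at -0.54 (SE 0.17, 95% interval -0.89 to -0.18), each with a limma adjusted p of 0.0579. miR-378b was at -0.45 (limma adjusted p = 0.108) and miR-378a-5p at -0.33 (limma adjusted p = 0.136). None was called, where 6.55% of tested miRNAs were. A two-sided exact permutation test within diets, which can go no lower than 0.005, gave p = 0.035 for miR-378a-3p, miR-378c and miR-378a-5p and 0.115 for miR-378b, unadjusted over 8 such tests. The limma fit was repeated with each of the 18 libraries left out. miR-378a-3p passed in 3 of these fits, without HF 1 (adjusted p = 0.0340), HF+CR 3 (0.0423) or LF+CR 2 (0.0482). miR-378c passed in 2, without HF 1 (0.0368) or HF+CR 3 (0.0365). In the others the limma adjusted p went up to 0.162 for miR-378a-3p and 0.139 for miR-378c. Without HF+CR 3 the fit called 78 of all tested miRNAs, against 23 with every library. After rescaling by size factors, which moves the median of all tested miRNAs to 0.02 against -0.17 as deposited, the differences were -0.44 for miR-378c, -0.34 for miR-378a-3p, -0.26 for miR-378b and -0.13 for miR-378a-5p, with limma adjusted p of 0.215 to 0.605.

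For exercise on the high-fat diet, HF+Ex against HF, the abundant members overlapped with their control. In HF+Ex against HF, miR-378a-3p was at 9907, 14671 and 12747 RPM in HF+Ex and 9950, 18363 and 13504 RPM in HF, a difference of -0.14 (95% interval -0.64 to 0.37). miR-378c was at 2386, 3643 and 3252 RPM in HF+Ex, which overlapped HF (-0.12, 95% interval -0.71 to 0.48). miR-378b went the other way, with 32.9, 31.1 and 33.5 RPM in HF+Ex against 24.3, 26.2 and 24.05 RPM in HF. All its HF+Ex libraries lay above all HF libraries, as for 9.69% of tested miRNAs, but the difference was 0.38 (SE 0.24, 95% interval -0.14 to 0.89, limma adjusted p = 0.765). No member was called, against 0.855% of tested miRNAs.

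In LF+Ex against LF every member overlapped. miR-378a-3p was at 8251 to 11151 RPM in LF+Ex and 9480 to 13966 RPM in LF, and miR-378b at 17.6 to 24.8 RPM in LF+Ex and 14.8 to 28.2 RPM in LF. The 4 differences ran between -0.22 and 0.13. limma called none of the 351 tested miRNAs (0%), and 41 had an unadjusted p below 0.05. Averaged over both diets, exercise gave 0.25 for miR-378b (SE 0.17, limma adjusted p = 0.881, exact permutation p = 0.115) and -0.18 for miR-378a-3p (SE 0.17, exact permutation p = 0.335). limma again called none of the 351 (0%), and 12 had an unadjusted p below 0.05. The difference of the exercise effect between diets passed for no member, against 0.855% of tested miRNAs, and its largest size among members was -0.32, for miR-378a-5p.

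The diets themselves were compared within each regimen. In HF against LF all 4 members had differences above 0, between 0.30 for miR-378a-3p and 0.39 for miR-378c, with every pair of groups overlapping and limma adjusted p of 0.518 to 0.603. No member was called, against 0.285% of tested miRNAs. Under restriction the members parted. miR-378b was lower in HF+CR, at 9.25, 14.6 and 14.4 RPM against 18.4, 25.1 and 16.5 RPM in LF+CR, without overlap (-0.61, SE 0.24, 95% interval -1.13 to -0.10, limma adjusted p = 0.107). miR-378a-5p was higher in HF+CR, at 438, 392 and 357 RPM against 213, 282 and 329 RPM in LF+CR, also without overlap (0.54, SE 0.20, 95% interval 0.13 to 0.96, limma adjusted p = 0.0852). miR-378c and miR-378a-3p overlapped, at -0.37 and 0.17. None was called, against 10.5% of tested miRNAs. Groups separated downward, as for miR-378b, in 3.7% of tested miRNAs and upward, as for miR-378a-5p, in 23.9%. After rescaling by size factors miR-378b passed in this comparison (-0.93, limma adjusted p = 0.0352), miR-378a-5p was at 0.21 (limma adjusted p = 0.549), miR-378c at -0.70 and miR-378a-3p turned to -0.17. The rescaled fit called 25 of all tested miRNAs, against 37 as deposited. Fragment-like entries summed to 115 to 310 RPM in HF+CR, against 33.4 to 41.0 RPM in LF+CR, and leukocyte miRNAs to 3500 to 8987 RPM in HF+CR, against 2170 to 2970 RPM in LF+CR. Their part in these differences was not tested.

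Under exercise miR-378b was higher on the high-fat diet, at 32.9, 31.1 and 33.5 RPM in HF+Ex against 21.3, 17.6 and 24.8 RPM in LF+Ex. The groups did not overlap, as for 32.5% of tested miRNAs in that direction, and the difference was 0.60 (SE 0.24, 95% interval 0.09 to 1.12, limma adjusted p = 0.110). miR-378a-3p and miR-378c were at 0.38 and 0.36 and miR-378a-5p at 0.00, all overlapping. After rescaling by size factors miR-378b was at 0.39 (limma adjusted p = 0.349), miR-378a-3p at 0.15, miR-378c at 0.14 and miR-378a-5p at -0.22. Leukocyte miRNAs summed to 5087 to 7089 RPM in HF+Ex, against 3002 to 4082 RPM in LF+Ex, and endothelial miRNAs to 19096 to 20812 RPM in HF+Ex, against 15894 to 17683 RPM in LF+Ex. Fragment-like entries summed to 399 RPM in HF+Ex 1, 15.9 RPM in HF+Ex 2 and 21.0 RPM in HF+Ex 3, against 16.7 to 39.7 RPM in LF+Ex. The part of all these miRNAs and entries in the result was not tested. None was called, against 8.26% of tested miRNAs. The diet difference under exercise minus that under restriction, a comparison added after these values were seen, was 1.22 for miR-378b (SE 0.34, limma adjusted p = 0.0689), and no member was called, against 2.85% of tested miRNAs. Averaged over the 3 regimens, the diet difference was 0.29 for miR-378a-5p (SE 0.11, limma adjusted p = 0.0738) and 0.28 for miR-378a-3p (SE 0.14, limma adjusted p = 0.139). It was 0.12 for miR-378b and 0.13 for miR-378c. After rescaling the values were 0.083 for miR-378a-5p (limma adjusted p = 0.637) and 0.074 for miR-378a-3p (limma adjusted p = 0.748), and miR-378b and miR-378c changed sign, to -0.08 for each. None was called, against 18.5% of tested miRNAs.

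Ordered by mean level, miR-378b ran 32.5 ± 1.21 RPM in HF+Ex, 24.8 ± 1.16 in HF, 21.2 ± 3.59 in LF+Ex, 20.0 ± 4.49 in LF+CR, 19.9 ± 7.21 in LF and 12.7 ± 3.04 in HF+CR (SD, n = 3). HF+Ex and HF did not overlap. HF, LF+Ex, LF+CR and LF each overlapped with their neighbours among these 4. HF+CR lay below every other library, its highest value of 14.6 RPM in HF+CR 2 standing just under the 14.8 RPM of LF 1. How many tested miRNAs have a group below or above all other libraries was not counted. miR-378c ran 3393 ± 953 RPM in HF, 3094 ± 643 in HF+Ex, 2615 ± 880 in LF, 2395 ± 439 in LF+Ex, 2136 ± 395 in LF+CR and 1681 ± 447 in HF+CR, and each neighbouring pair overlapped. miR-378a-3p ran 13939 ± 4223 RPM in HF, 12442 ± 2396 in HF+Ex, 11171 ± 2438 in LF, 9531 ± 1480 in LF+Ex, 8966 ± 1175 in HF+CR and 8106 ± 2120 in LF+CR, also with overlap at every step. miR-378a-5p was highest in HF, at 460 ± 64.8 RPM, and lowest in LF+CR, at 274 ± 57.9 RPM, and the 4 groups between had means of 370 to 396 RPM.

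The members' ratios are given as a description. How often ratios of other miRNA pairs separate the groups in this way was not counted. miR-378c amounted to 23.8% of the miR-378a-3p level on average, within 20.5% to 29.5% in the 15 libraries outside HF+CR. In HF+CR it was 15.4%, 20.4% and 19.7%, below every other library, though HF+CR 2 at 20.44% stood just under LF 1 at 20.47%. miR-378b relative to miR-378a-3p was 0.121%, 0.147% and 0.155% in HF+CR and 0.332%, 0.212% and 0.263% in HF+Ex, with 0.244%, 0.143% and 0.178% in HF. On the low-fat diet restriction went with higher ratios. miR-378c was at 29.5%, 24.7% and 26.0% of miR-378a-3p in LF+CR, against 20.5%, 22.8% and 25.8% in LF, which overlapped. miR-378b was at 0.285%, 0.239% and 0.224% in LF+CR, against 0.156%, 0.167% and 0.202% in LF, which did not. The strands of the miR-378a hairpin kept miR-378a-5p at 2.53% to 5.72% of miR-378a-3p.

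Chosen after these values were seen, a two-sided exact permutation test within diets was run on 4 log2 ratios for restriction and for exercise (8 tests, unadjusted). Exercise averaged over both diets gave a higher ratio of miR-378b to miR-378a-3p, by 0.44 (exact permutation p = 0.02), and of miR-378b to miR-378c, by 0.37 (exact permutation p = 0.03). For restriction, where the average joins differences of opposite sign on the 2 diets, the ratio of miR-378c to miR-378a-3p differed by -0.10 (exact permutation p = 0.51) and that of miR-378b to miR-378a-3p by 0.06 (exact permutation p = 0.775).

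**Figure D3:**
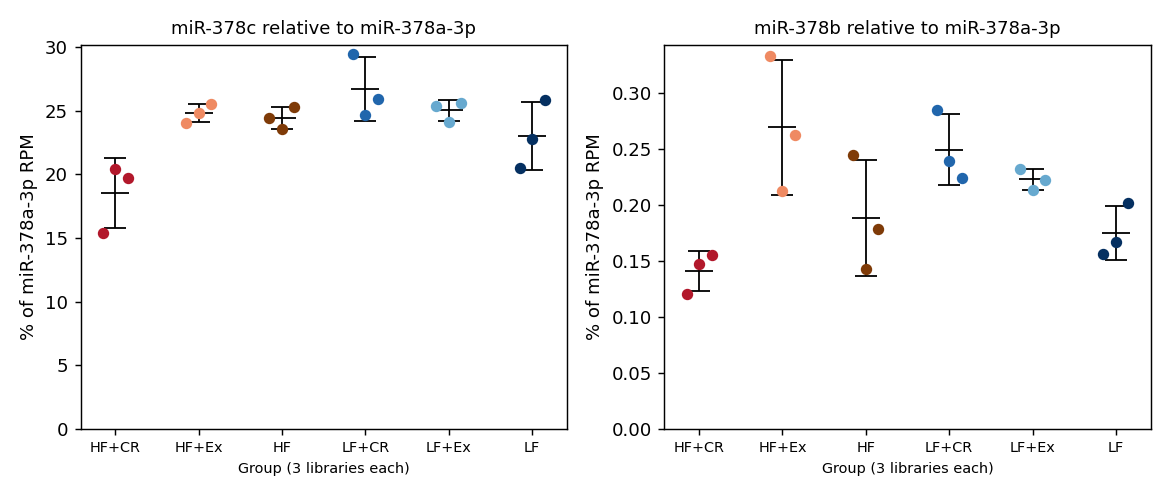
miR-378c (left) and miR-378b (right) as a percentage of miR-378a-3p RPM in each library, with group mean and SD. The HF+CR libraries sit between 15.4% and 20.4% for miR-378c, below all others, with LF 1 just above them at 20.5%.

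Across the 18 libraries miR-378c followed miR-378a-3p closely on the log2 scale (Pearson r = 0.89, permutation p = 1e-05, the smallest that 100000 resamples can give, and Spearman rho = 0.92, permutation p = 1e-05). The adjusted values over 6 member pairs were 3e-05 and 6e-05. r was 0.91 without the 2 libraries farthest from the median of miR-378a-3p and 0.94 on deviations from the group means. miR-378b followed miR-378c (r = 0.85, adjusted permutation p = 3e-05; rho = 0.84, adjusted permutation p = 9e-05), with r = 0.75 without the 2 farthest libraries and 0.81 within groups. miR-378b and miR-378a-3p gave r = 0.64 (adjusted permutation p = 0.008; rho = 0.66, adjusted permutation p = 0.0078), 0.73 without the 2 farthest and 0.68 within groups.

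The strands of the miR-378a hairpin were less tied: r was 0.58 (adjusted permutation p = 0.017) and rho 0.46 (adjusted permutation p = 0.078). Their r fell to 0.32 without the 2 libraries farthest from the median of miR-378a-3p and to 0.36 within groups. miR-378a-5p with miR-378b gave r = 0.15 and with miR-378c r = 0.34, neither past the test (adjusted permutation p = 0.55 and 0.21). Members with near-identical sequence may share reads, which bears on the first 3 of these relations.

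**Figure D4:**
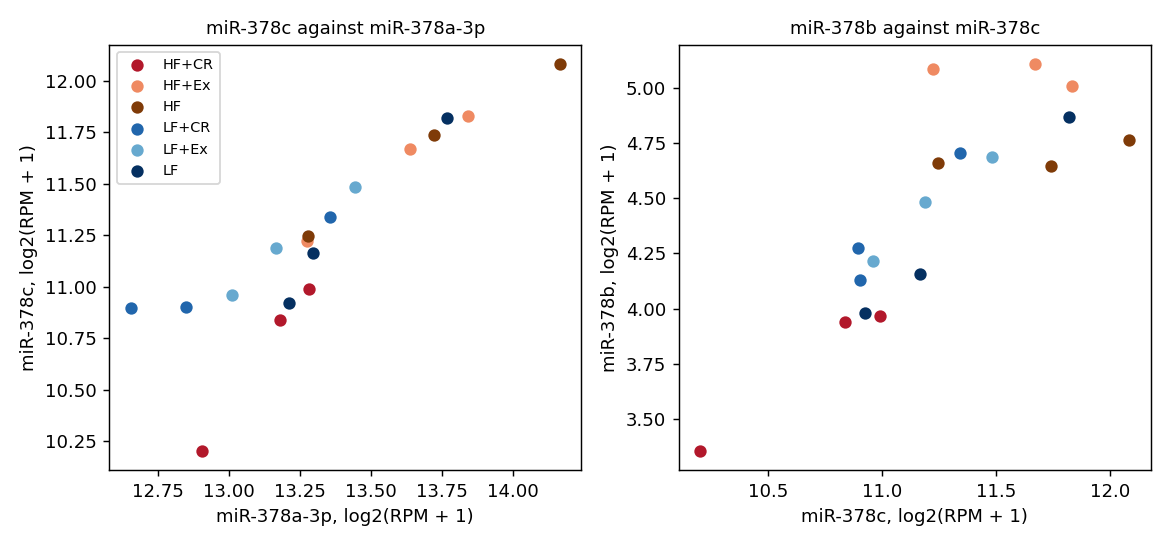
Levels of member pairs in the 18 libraries, as log2(RPM + 1), coloured by group: miR-378c against miR-378a-3p (left, r = 0.89) and miR-378b against miR-378c (right, r = 0.85). HF+CR 1 has the lowest miR-378c and miR-378b, and in the right panel the HF+Ex libraries have the 3 highest miR-378b levels.

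Outside the family, the 5 miRNAs most like each member were named by Pearson r of log2(RPM + 1) over the 18 libraries, as a description. For miR-378a-3p they were miR-185-3p (r = 0.87), miR-140-3p (0.84), miR-103-3p (0.84), miR-185-5p (0.82) and miR-425-5p (0.78). For miR-378c they were miR-107-3p (r = 0.76), miR-140-3p (0.76), miR-1981-5p (0.75), miR-103-3p (0.75) and miR-185-3p (0.70). miR-378b was most like miR-1981-5p (r = 0.78) and miR-322-5p (0.74), then miR-223-5p, miR-676-3p and miR-322-3p (0.64 to 0.63). The list of miR-378a-5p shared none of these names: miR-423-3p (r = 0.86), miR-423-5p (0.84), miR-148b-3p (0.84), miR-186-5p (0.82) and miR-3068-5p (0.79). Levels relative to the library total are shared by all of these measurements.

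A list of 25 miRNAs linked to mitochondrial or lipid metabolism gave a wider view, with 19 of them tested. The list was chosen with earlier results of these data known, so its shares are a description and no test of the list. In HF+CR against HF 0 of 19 were called, with a median of -0.16 beside -0.05 over all tested miRNAs. For restriction averaged over both diets 4 of 19 fell, where 6.27% of all tested miRNAs did, and none rose, with a median of -0.26 beside -0.17 over all. They were the insulin-sensitivity miRNAs miR-103-3p (-0.49, SE 0.12, limma adjusted p = 0.0274) and miR-107-3p (-0.60, SE 0.13, limma adjusted p = 0.0217), the lipid regulator miR-27b-3p (-0.40, SE 0.10, limma adjusted p = 0.0335), and the p53 target miR-34a-5p (-1.50, SE 0.35, limma adjusted p = 0.0256). Without LF+CR 1 and HF+CR 1, the libraries with pancreatic miRNAs, this comparison called 0 of all tested miRNAs, and after rescaling by size factors 8, against 23 in the fit as deposited. With only the compared groups fitted, the comparison also called 0. Both miR-103-3p and miR-107-3p lie in pantothenate kinase introns. miR-103-3p was among the 5 closest to miR-378a-3p and to miR-378c, and miR-107-3p among those of miR-378c. For the diet averaged over regimens 5 of 19 rose, where 16% of all tested miRNAs did, and none fell, among them miR-210-3p (0.77, SE 0.14, limma adjusted p = 0.00717), a hypoxia-induced miRNA known to target iron-sulphur cluster assembly. The others were miR-149-5p (1.02), miR-34a-5p (0.91), miR-27b-3p (0.32) and miR-33-5p (0.56), a repressor of cholesterol export hosted by Srebf2. The median was 0.32, beside 0.19 over all tested miRNAs.

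In the single comparisons few of these 19 passed. In LF+CR against LF miR-29a-3p (0.54) and miR-33-5p (1.03) rose while miR-27b-3p (-0.64) and miR-34a-5p (-1.93) fell (limma adjusted p = 0.0172 to 0.0298), with a median of -0.45 beside -0.32 over all. This comparison called 22 of all tested miRNAs (6.27%), and 0 when only the compared groups were fitted. In HF+CR against LF+CR miR-27b-3p (0.68) and miR-455-3p (1.07) rose (limma adjusted p = 0.017 and 0.0417), where 10.5% of all tested miRNAs were called. miR-149-5p rose in HF+Ex against LF+Ex (1.53, limma adjusted p = 0.0411), where 8.26% of all tested miRNAs were called. miR-33-5p rose in HF against LF (1.58, limma adjusted p = 0.00715), where 0.285% were called. Its mean was 5.69 RPM in LF, near the filter of 5 RPM, and 19.5 RPM in HF. HF against LF called 0 miRNAs when only the compared groups were fitted, and 0 without LF 2, HF 2 or HF 3. The diet difference of exercise for miR-33-5p was -2.07 (limma adjusted p = 0.00824), where 0.855% were called. In both exercise comparisons within a diet, in the exercise average and in the diet difference of restriction, limma called none of the 19. Over all tested miRNAs these comparisons called 0% to 0.855%.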

How the data were processed

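Small RNA libraries of 18 mouse livers were measured by sequencing. The authors deposited RPM values, reads scaled to a common library total, for 758 mature miRNAs, per the file headers. The per-sample tables and the series table hold the same values. The genome build named is mm10, per the submitters' processing notes. Not given in the sources used here: aligner, counting tool, miRNA release and handling of multiply matching reads. Since RPM is a share, each value also depends on the most abundant miRNAs.

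Groups and replicate numbers came from sample titles. log2(RPM + 1) of 351 miRNAs with at least 5 RPM in at least 3 libraries was fitted in limma 3.58.1 (R 4.3.3; 1 coefficient per group, all 18 libraries, intensity trend, two-sided, Benjamini-Hochberg over 351, threshold 0.05). The fit was tested on simulated data for HF+CR against HF. The 12 comparisons are 7 pairs of groups (diet within a regimen, regimen within a diet), averages over diets or regimens, and differences of differences; another was added after the data were seen. Fold changes understate low miRNAs. Exact permutation and correlations used Python 3.11.15 with scipy 1.17.1, figures matplotlib 3.10.9. Sequences are from RefSeq (GRCm38.p6) and annotation from GENCODE M21. No molecular identifiers are named, so Poisson intervals cover counting error only. The members, lists and the rule for named miRNAs (every member, the 5 most correlated miRNAs per member, those of the metabolism list that passed) were chosen with earlier results of these data known. Alternatives were adding 5 RPM before the log, testing all miRNAs, testing those at 50 RPM, size factors, only the compared groups, a replicate block, no trend and leaving libraries out. No sequence of miR-378a is reported here.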

Additional observations from a re-analysis of the deposited data

Results flagged for a closer look

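miR-378b was marked for a difference between groups: the diet difference went opposite ways under exercise and under restriction. Every HF+Ex library, at 31.1 to 33.5 RPM, lay above every LF+Ex library, at 17.6 to 24.8 RPM, as for 32.5% of tested miRNAs. Every HF+CR library, at 9.25 to 14.6 RPM, lay below every LF+CR library, at 16.5 to 25.1 RPM, as for 3.7% of tested miRNAs. The diet difference under exercise minus that under restriction was 1.22 on the log2 scale (SE 0.34, 95% interval 0.49 to 1.95), in a comparison chosen after the values were seen. limma gave an adjusted p of 0.0689 over 351 miRNAs, where 10 (2.85%) were called, so the difference did not pass. After rescaling by size factors it was 1.32 (limma adjusted p = 0.0495). The p-values of 0.0689 and 0.0495 come from the values that prompted the comparison, so neither is an independent test of it. With that rescaling the diet difference of miR-378b was 0.39 under exercise (limma adjusted p = 0.349). Under restriction it was -0.93 (limma adjusted p = 0.0352). The same comparison gave 0.73 for miR-378c, 0.21 for miR-378a-3p and -0.54 for miR-378a-5p, with limma adjusted p of 0.305 to 0.843. HF+CR 1, HF+CR 3 and HF+Ex 1 were the 3 shallowest libraries, where miR-378b rested on 33, 43 and 81 inferred reads. Fragment-like entries summed to 115 to 310 RPM in HF+CR, against 33.4 to 41.0 RPM in LF+CR. They summed to 399 RPM in HF+Ex 1, 15.9 RPM in HF+Ex 2 and 21.0 RPM in HF+Ex 3, against 16.7 to 39.7 RPM in LF+Ex. Leukocyte miRNAs summed to 5087 to 7089 RPM in HF+Ex, against 3002 to 4082 RPM in LF+Ex, and to 3500 to 8987 RPM in HF+CR, against 2170 to 2970 RPM in LF+CR. Endothelial miRNAs summed to 19096 to 20812 RPM in HF+Ex, against 15894 to 17683 RPM in LF+Ex. The part of depth and of these miRNAs in the result was not tested.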

How the results depend on the processing

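Of 1248 values of the 4 tested members under the alternatives, 1192 kept their direction and side of the threshold, 42 reversed and 14 came to pass the threshold. The cause of these changes was not tested. Many of the values could not change direction. A library left out from outside a comparison leaves its fold change as it was, and so do the filters, the block, the trend and fitting only the compared groups. The number kept is therefore no measure of how robust the results are. Over all alternatives the limma adjusted p in HF+CR against HF ran 0.0274 to 0.531 for miR-378b and 0.0483 to 0.531 for miR-378c, and for restriction averaged over diets 0.0333 to 0.274 for miR-378a-3p and 0.0312 to 0.264 for miR-378c. Rescaling by size factors reversed miR-378a-3p in HF+CR against LF+CR (-0.17) and in the diet difference of exercise (-0.088), and miR-378a-5p in HF+Ex against LF+Ex (-0.22) and in the diet difference of restriction (-0.051). It also reversed miR-378c in LF+CR against LF (0.078) and LF+Ex against LF (0.089), and miR-378b and miR-378c in the diet average (-0.082 and -0.079). miR-378b in HF+CR against LF+CR then passed (-0.93). The correlation of miR-378a-3p with miR-378a-5p no longer passed (r = 0.42, permutation p = 0.0799).

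Same-numbered libraries correlated above 0.1 in 14 of 45 pairs, and differently numbered ones in 24 of 90. Among the 18 libraries, 7 correlated best with their own number, so the numbers were not taken as a pairing. With the replicate block, restriction averaged over diets passed for miR-378a-3p (-0.54, limma adjusted p = 0.0333) and miR-378c (-0.63, limma adjusted p = 0.0325), with 22 miRNAs called, against 23 without the block. It changed no other member's call.

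Some libraries were left out together, in settings chosen after seeing the data. Without LF 1 and HF+CR 3, high in leukocyte and epithelial miRNAs, miR-378b (-1.03) and miR-378c (-1.09) passed in HF+CR against HF. LF 1 is in neither of these groups, so both fold changes are those without HF+CR 3 alone. Restriction averaged over diets also passed in this setting for miR-378a-3p (-0.60), miR-378b (-0.58) and miR-378c (-0.77), and miR-378b in LF+CR against LF reversed (-0.14). In leukocyte miRNAs LF 1, at 7740 RPM, was close to HF 2, at 7466 RPM, which was kept. The diet difference of restriction reversed for miR-378a-5p without the pancreatic pair (-0.020) and for miR-378a-3p without the 3 shallowest libraries (0.03).

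The number of miRNAs called, given first under the alternative, moved more. Without a filter it was 13 against 37 in HF+CR against LF+CR, 18 against 29 in HF+Ex against LF+Ex, 1 against 3 in HF+Ex against HF and 5 against 3 in the diet difference of exercise. With a filter of 50 RPM it was 0 against 1 in HF against LF, and miR-378b had no value. Without the intensity trend it was 1 in HF+Ex against HF. With only the compared groups it was 0 in HF against LF, 4 in HF+CR against LF+CR, 59 in HF+Ex against LF+Ex, 0 against 22 in LF+CR against LF, 1 in HF+Ex against HF, 0 against 23 in restriction averaged, 1 against 3 in the diet difference of restriction and 12 in that of exercise. After rescaling it was 2 in HF against LF, 14 in LF+CR against LF, 1 in HF+Ex against HF, 8 in restriction averaged, 1 in the diet difference of restriction and 8 in that of exercise. Without the leukocyte and epithelial pair it was 25 in HF+CR against HF, 63 in restriction averaged and 6 in the diet difference of restriction. Without the pancreatic pair it was 4 in HF+CR against LF+CR, 5 in LF+CR against LF, 0 in restriction averaged and 1 in the diet difference of restriction. Without the 3 shallowest libraries it was 16 in HF+CR against LF+CR, 36 in LF+CR against LF, 9 in HF+CR against HF, 49 in restriction averaged and 6 in the diet difference of restriction.

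Leaving out each library in turn gave 0 to 2 calls in HF against LF, 3 to 51 in HF+CR against LF+CR, 2 to 60 in HF+Ex against LF+Ex, 5 to 40 in LF+CR against LF, 0 to 22 in HF+CR against HF, 0 to 2 in LF+Ex against LF, 0 to 5 in HF+Ex against HF, 0 to 78 in restriction averaged, 37 to 91 in diet averaged, 1 to 9 in the diet difference of restriction and 2 to 9 in that of exercise. The members that changed call or direction ran as follows. In HF+CR against HF miR-378b ran -1.04 to -0.74. In restriction averaged miR-378a-3p ran -0.65 to -0.43 and miR-378c -0.74 to -0.50. In LF+CR against LF miR-378b ran -0.14 to 0.30 and miR-378c -0.45 to 0.00216. In LF+Ex against LF miR-378a-5p ran -0.056 to 0.19, miR-378b -0.048 to 0.39 and miR-378c -0.28 to 0.17. In HF+Ex against HF miR-378a-3p ran -0.36 to 0.083 and miR-378c -0.34 to 0.081. In HF+Ex against LF+Ex miR-378a-5p ran -0.086 to 0.13, in exercise averaged miR-378c ran -0.21 to 0.025, and in the diet difference of restriction miR-378a-3p ran -0.35 to 0.093. In the diet difference of exercise miR-378a-3p ran -0.14 to 0.30, miR-378b -0.019 to 0.42 and miR-378c -0.28 to 0.17.

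A planned count test on inferred reads was not run, because the deposited RPM were not accepted as recovered counts. Read numbers in the text take a step of the RPM scale as 1 read. Counting error limits miR-378b, at 33 inferred reads in HF+CR 1, and miR-378d, whose listed 0 may stand for 0 reads or 1.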
